A study of Homo sapiens with 14 samples.

Results

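HOX genes encode homeodomain transcription factors that give cells along the body axis their regional identity. They lie in 4 clusters, HOXA to HOXD, and within a cluster the order of the genes follows both the order in which they are switched on in the embryo and the position at which they act, from the head end (low numbers) to the tail end and limb tips (high numbers, up to 13). In adult epithelia and in tumours derived from them, the set of HOX genes that stays active is known to differ by tissue and to be held in place by Polycomb and Trithorax chromatin proteins. The genes described here are 38 named HOX genes, chosen by a list of gene symbols and not by any measured value. All 38 were matched by symbol to a row of a table of 61541 annotated genes: 10 in the HOXA cluster, 10 in HOXB, 9 in HOXC and 9 in HOXD.

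RNA was sequenced from 6 libraries labelled BxPC-3, a human pancreatic cancer cell line. By their labels, 3 come from cells with a short hairpin against HDAC5, a class IIa histone deacetylase (shHDAC5, genotype HDAC5 knockdown), and 3 from cells with a control hairpin (shControl, genotype WT), all at day 3. For PANC-1, another pancreatic cancer line, 1 list of peaks of the transcription factor GATA1 was deposited per condition, shHDAC5 and shControl, each tied by the labels to 2 immunoprecipitations and 2 inputs at day 3. Whether the libraries of a label are separate cultures is not said in the labels; if they are not, the p-values reflect technical spread alone.

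The labels were first set against the data. HDAC5 itself had 2737, 2816 and 3026 counts in the libraries labelled shHDAC5, against 1482, 1313 and 1618 counts in those labelled shControl. In CPM (counts scaled to library size) that was 164 ± 4.44 in the shHDAC5-labelled libraries and 94.9 ± 2.99 in the shControl-labelled libraries (SD, n = 3 each), at a log2 fold change of 0.79 (SE 0.0358, adjusted p = 3.95e-40 in the quasi-likelihood test of edgeR). The target transcript was thus higher under the label of its own knockdown, and each direction given here is between libraries as labelled. Some epithelial genes that define a pancreatic duct line were nearly silent in all 6 libraries: KRT19 reached at most 0.168 CPM and GRHL2 at most 0.0644 CPM, while KRT8 averaged 1010 CPM in the libraries labelled shHDAC5 and 717 CPM in those labelled shControl. The duct keratin KRT7 was expressed and fell to 25.3 ± 0.445 CPM with the shHDAC5 label, against 371 ± 9.72 CPM with the shControl label (SD, n = 3 each, log2 fold change −3.87, adjusted p = 9.28e-102 by edgeR). SMAD4 and CDKN2A, known as deleted in BxPC-3, were both detected: SMAD4 at 46.8 CPM in the libraries labelled shHDAC5 and 49.6 CPM in those labelled shControl, and CDKN2A at 13.7 CPM in the libraries labelled shHDAC5 and 149 CPM in those labelled shControl. Summed CPM of 9 epithelial markers ranged from 1341 to 1410 in the shHDAC5-labelled libraries and from 1485 to 1516 in the shControl-labelled ones. Nearly all of it came from the keratins KRT7, KRT8 and KRT18. EPCAM averaged 1.99 CPM with the shHDAC5 label and 1.85 CPM with the shControl label. CDH1 averaged 1.325 CPM with the shHDAC5 label and 1.425 CPM with the shControl label, and ESRP1 reached at most 0.118 CPM. Of 10 fibroblast markers, 4 were tested (1 higher and 3 lower with the shHDAC5 label), and their sum was 86.1 to 91.6 CPM in shHDAC5-labelled and 121 to 131 CPM in shControl-labelled libraries, with LUM at 0 throughout. For 5 endothelial markers they were 3.58 to 4.18 CPM in shHDAC5-labelled and 1.21 to 1.48 CPM in shControl-labelled libraries, with 1 of 2 tested markers higher. Leukocyte markers (6, of which 2 of 3 tested were higher) summed to 7.83 to 9.46 CPM in shHDAC5-labelled and 3.32 to 4.19 CPM in shControl-labelled libraries. PTPRC stayed at or below 0.177 CPM in each library, whereas ITGAM had 47, 52 and 46 counts in the libraries labelled shHDAC5 and 0 in each labelled shControl, and CD14 averaged 1.70 ± 0.560 CPM with the shHDAC5 label and 0.0667 ± 0.0701 CPM with the shControl label (SD, n = 3 each). Erythroid and megakaryocyte markers (6, of which 3 of 5 tested were higher and 1 lower) summed to 30.5 to 34.3 CPM in shHDAC5-labelled and 31.3 to 35.4 CPM in shControl-labelled libraries, although members moved in opposite directions. HBB had 99, 70 and 99 counts in the libraries labelled shHDAC5 and 0 in each labelled shControl. HBA1 averaged 0.725 CPM with the shHDAC5 label and 0.128 CPM with the shControl label. ALAS2 averaged 4.72 CPM with the shHDAC5 label and 1.01 CPM with the shControl label. The marker that was lower, ITGA2B, averaged 9.19 CPM with the shHDAC5 label and 19.6 CPM with the shControl label. Over all tested genes 44.8% were higher and 39.9% lower at an adjusted p under 0.05, so these counts of markers are a description only. The part of the marker differences in the HOX results was not tested.

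Total HOX RNA was lower in the libraries labelled shHDAC5. Summed over the 38 genes it was 116, 119 and 122 CPM in the libraries labelled shHDAC5, against 377, 360 and 372 CPM in those labelled shControl, a mean of 119 ± 2.67 against 370 ± 8.49 CPM (SD, n = 3 each), or 3.11-fold less. The libraries held between 15179758 and 17854340 counts. In bulk RNA, fewer cells that express a gene and less of its RNA per cell cannot be told apart. Of the 38 genes, 34 had at least 1 count and 23 passed the filter on low counts. Of these 23, 18 were above the filter's level in all 6 libraries. The other 5 (HOXA3, HOXA9, HOXB3, HOXB5 and HOXC12) were above it in all 3 labelled shControl but not in all 3 labelled shHDAC5. These 5 could therefore pass only by their level under the shControl label.

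Of the 38 genes, 17 fell, 3 rose (HOXA5, HOXC13 and HOXD8), 3 missed the threshold (HOXA3, HOXC12 and HOXD9) and 15 could not be tested. A gene is counted as fallen or risen at an adjusted p under 0.05 in edgeR's quasi-likelihood test over all 19181 tested genes. By the same rule 84.7% of all tested genes differed between the labels, 39.9% lower and 44.8% higher, so a changed HOX gene is not unusual in these data, and the direction and size are what the counts describe. The median log2 fold change was −2.63 over the 23 tested HOX genes and 0.09 over all tested genes. A fall of at least 4-fold was seen for 13 of the HOX genes and for 7.97% of all tested genes. For a fall of at least 2-fold it was 16 HOX genes, against 20.1% of all. Both counts include HOXA9, HOXB3 and HOXB5, which could pass the filter only by their level under the shControl label. A rise of at least 2-fold was seen for 1 HOX gene, HOXD8, and for 26.4% of all tested genes. The 3 libraries of one label did not overlap with the 3 of the other for 19 of the 23 genes (17 lower and 2 higher). The same was true of 84.8% of all tested genes, 39.8% lower and 45.0% higher.

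**Figure D1:**
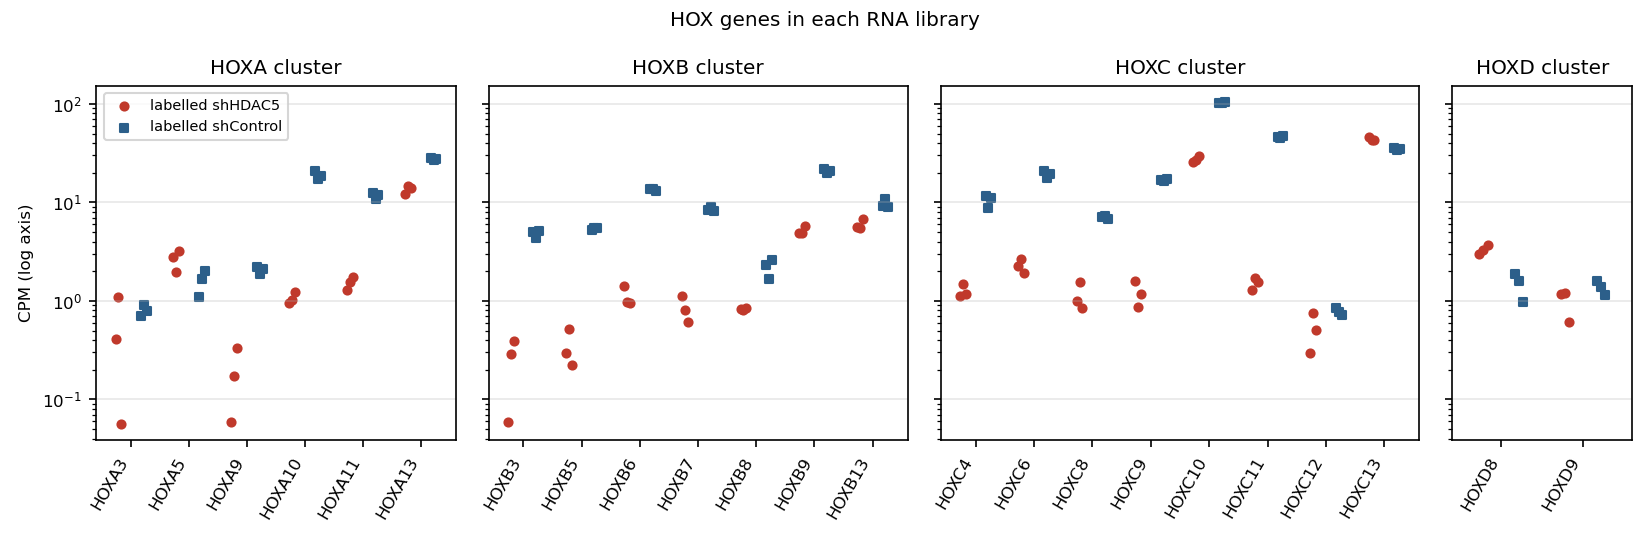
Level of each tested HOX gene in each RNA library, in CPM on a log axis, by cluster; circles are the 3 libraries labelled shHDAC5 and squares the 3 labelled shControl. Most genes of HOXA, HOXB and HOXC sit lower in the circles, while HOXC13 (mean 43.9 CPM in the shHDAC5 libraries against 34.8 CPM in the shControl ones), HOXA5 and HOXD8 sit higher.

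The promoters of 19 of the 38 genes were found in the RefSeq table of sequences before gene starts (assembly GRCh38.p14), in 26 windows. The 250 bases before a start are shown for 5 of them: HOXA9 and HOXA10, which fell by more than 10-fold; HOXA13, which fell by much less in the same cluster; the start that HOXC4 shares with its neighbours; and HOXD8, which rose. Capitals mark CCAAT on either strand (ATTGG on the other), the word that CCAAT-binding factors such as NF-Y recognise, and TCANGTG on either strand (CACNTGA on the other), an E-box type of word. Each line runs 5′ to 3′ on the gene's strand.
HOXA9 (chr7:27165538-27165787, minus strand): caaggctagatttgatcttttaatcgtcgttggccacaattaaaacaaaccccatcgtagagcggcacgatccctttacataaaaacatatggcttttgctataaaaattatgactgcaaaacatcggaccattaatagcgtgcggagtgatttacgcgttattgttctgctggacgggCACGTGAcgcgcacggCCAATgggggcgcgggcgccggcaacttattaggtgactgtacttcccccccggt
HOXA10 (chr7:27174321-27174570, minus strand): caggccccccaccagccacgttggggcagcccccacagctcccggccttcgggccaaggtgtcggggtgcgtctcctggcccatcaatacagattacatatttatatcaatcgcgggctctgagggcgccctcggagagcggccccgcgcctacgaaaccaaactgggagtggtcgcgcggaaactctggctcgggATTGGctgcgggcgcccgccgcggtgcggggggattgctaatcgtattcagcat
HOXA13 (chr7:27200092-27200341, minus strand): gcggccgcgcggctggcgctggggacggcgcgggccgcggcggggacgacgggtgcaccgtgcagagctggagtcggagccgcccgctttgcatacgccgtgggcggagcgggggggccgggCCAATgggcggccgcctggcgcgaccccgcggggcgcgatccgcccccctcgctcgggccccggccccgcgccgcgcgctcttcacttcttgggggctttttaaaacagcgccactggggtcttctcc
HOXC4 (chr12:54016638-54016887, plus strand): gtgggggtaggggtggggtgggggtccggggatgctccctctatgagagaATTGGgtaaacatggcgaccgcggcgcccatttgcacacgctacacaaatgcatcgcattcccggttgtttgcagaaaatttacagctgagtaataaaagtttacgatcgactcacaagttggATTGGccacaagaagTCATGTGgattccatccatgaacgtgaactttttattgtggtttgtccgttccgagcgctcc
HOXD8 (chr2:176129455-176129704, plus strand): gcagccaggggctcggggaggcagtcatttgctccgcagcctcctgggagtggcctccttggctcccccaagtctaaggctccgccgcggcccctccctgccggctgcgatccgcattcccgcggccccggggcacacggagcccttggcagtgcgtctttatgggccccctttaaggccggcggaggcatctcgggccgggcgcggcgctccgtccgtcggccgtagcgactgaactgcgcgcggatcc
The HOXA9 and HOXC4 windows hold both words within 40 bases of each other, whereas the HOXA10 and HOXA13 windows hold only CCAAT and the HOXD8 window neither. A CCAAT lay in 17 of the 26 HOX windows (65.4%), against 32.0% of 34788 distinct RefSeq windows of the same length. TCANGTG lay in 42.3% of the HOX windows and 10.7% of all, and both words within 40 bases in 6 HOX windows (23.1%) and in 1.59% of all. Those 6 belonged to HOXA2, HOXA3, HOXA7, HOXA9, HOXC4 and HOXD10, of which HOXA9 and HOXC4 fell and the others missed the threshold or were not tested. The words were chosen after these sequences had been read, they can share a base with each other (as in a window of HOXD3), and several windows belong to HOXA3 alone. The TATA word TATAAA lay in 19.2% of HOX windows and 10.8% of all. GATA words (GATA with A or T before it and A or G after it, either strand) lay in 19.2% of HOX windows and 22.4% of all, and in none of the 5 windows shown. The number of CG dinucleotides had a median of 19.5 in the HOX windows and 11 in all, and among the windows shown 20 in the HOXA9 window, 24 in HOXA10, 40 in HOXA13, 14 in HOXC4 and 28 in HOXD8. Such matches describe the letters in these windows, and no use of them was measured.

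In the HOXA cluster (chr7:27100354-27200091, hg38), the genes at the high-number end fell and HOXA5 rose. Of its 10 genes, 4 fell, 1 rose, 1 missed the threshold and 4 were not tested, and the summed level was 20.3 ± 1.76 CPM in the libraries labelled shHDAC5 and 63.4 ± 3.37 CPM in those labelled shControl (SD, n = 3 each). HOXA10 (ENSG00000253293, chr7:27170605-27179861), needed for the uterus and the male reproductive tract, had 0.946, 1.03 and 1.23 CPM in the libraries labelled shHDAC5, against 20.8, 17.1 and 18.4 CPM in those labelled shControl. No library of one label came near those of the other, and HOXA10 was 17.4-fold lower (log2 fold change −4.12, SE 0.161, adjusted p = 7.54e-46). HOXA9 (ENSG00000078399, chr7:27162438-27165537), a factor of blood stem cells and of many acute leukaemias, had 0.0591, 0.172 and 0.335 CPM in the shHDAC5-labelled libraries and 2.19, 1.89 and 2.11 CPM in the shControl-labelled ones. It fell by 3.38 on the log2 scale (SE 0.421, adjusted p = 3.07e-12), from a control level of only a few CPM. HOXA11 (ENSG00000005073, chr7:27181157-27185232), which acts in the forearm, kidney and uterus, fell to 1.53 ± 0.217 CPM in the libraries labelled shHDAC5, against 11.6 ± 0.808 CPM in those labelled shControl (SD, n = 3 each, log2 fold change −2.92). HOXA13 (ENSG00000106031, chr7:27194364-27200091), the gene of the hand, foot and hindgut end of the cluster, had 12.1, 14.7 and 14.0 CPM with the shHDAC5 label and 28.4, 27.2 and 27.7 CPM with the shControl label. The groups of HOXA13 were apart but closer than those of HOXA9 to HOXA11, with a log2 fold change of −1.03 (SE 0.0826, adjusted p = 7.42e-22).

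HOXA5 (ENSG00000106004, chr7:27141052-27143681), which acts in the lung and the neck and is known as an activator of the p53 gene, had 2.78, 1.95 and 3.19 CPM in the libraries labelled shHDAC5, against 1.09, 1.68 and 1.99 CPM in those labelled shControl. The groups overlap, since replicate 2 of shHDAC5 lies just below replicate 3 of shControl. The log2 fold change was 0.73 (SE 0.253, adjusted p = 0.00638). Without replicate 1 of shControl it was 0.50 (adjusted p = 0.0808), and without replicate 3 of shHDAC5 it was 0.55 (adjusted p = 0.0739), so the call rests on single libraries. HOXA3 (ENSG00000105997), a gene of the thymus and parathyroid, had 0.414, 1.09 and 0.0559 CPM with the shHDAC5 label and 0.708, 0.908 and 0.785 CPM with the shControl label. Its shHDAC5-labelled libraries lay on both sides of the shControl-labelled ones, and the log2 fold change of −0.62 missed the threshold (SE 0.44, adjusted p = 0.182). Without replicate 2 of shHDAC5, the highest library, it was −1.77 (adjusted p = 0.00515). The annotated span of HOXA3 (chr7:27107010-27152583) covers HOXA4, HOXA5 and HOXA6, so reads in that stretch may be shared or lost between them.

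All 7 tested genes of the HOXB cluster (chr17:48528526-48728750) fell, and none of the 10 rose. The summed level was 14.2, 13.7 and 15.6 CPM in the libraries labelled shHDAC5, against 65.6, 64.7 and 64.1 CPM in those labelled shControl. HOXB3 (ENSG00000120093, chr17:48548870-48590241), a hindbrain and blood gene, had 0.0591, 0.286 and 0.391 CPM in the shHDAC5-labelled libraries, against 4.96, 4.33 and 5.07 CPM in the shControl-labelled ones. Its log2 fold change of −4.23 (SE 0.323, adjusted p = 3.22e-23) was the lowest of the cluster, and its span covers HOXB4. HOXB5 (ENSG00000120075), which acts in the enteric nervous system and the lung, fell by 3.94 on the log2 scale, to 0.345 ± 0.152 CPM with the shHDAC5 label, against 5.39 ± 0.0947 CPM with the shControl label (SD, n = 3 each). HOXB6 (ENSG00000108511) had 1.42, 0.973 and 0.95 CPM in the libraries labelled shHDAC5, against 13.5, 13.6 and 13.1 CPM in those labelled shControl, a log2 fold change of −3.58 (SE 0.175, adjusted p = 1.34e-37). HOXB7 (ENSG00000260027), reported as raised in several carcinomas, fell by 3.33 on the log2 scale, to 0.847 ± 0.257 CPM with the shHDAC5 label, against 8.53 ± 0.441 CPM with the shControl label (SD, n = 3 each). From HOXB3 to HOXB13 the fall was smaller with each gene but HOXB9, which fell more than HOXB8. HOXB8 (ENSG00000120068), which can keep myeloid progenitors dividing, fell by 1.42 on the log2 scale, to 0.827, 0.802 and 0.839 CPM with the shHDAC5 label, against 2.32, 1.68 and 2.60 CPM with the shControl label. HOXB9 (ENSG00000170689, chr17:48621156-48626358), a gene of the rib cage and mammary gland, had 4.85, 4.87 and 5.76 CPM in the shHDAC5-labelled libraries and 21.8, 19.8 and 20.7 CPM in the shControl-labelled ones, a log2 fold change of −2.01. HOXB13 (ENSG00000159184, chr17:48724763-48728750), a partner of the androgen receptor in the prostate that lies far from the rest of its cluster, had 5.67, 5.44 and 6.82 CPM with the shHDAC5 label and 9.27, 10.8 and 8.93 CPM with the shControl label. Those groups were apart, with a log2 fold change of −0.68 (SE 0.131, adjusted p = 1.49e-06).

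The HOXC cluster (chr12:53938831-54056030) held most of the HOX RNA under either label, and HOXC11 fell the most of all tested HOX genes. Of its 9 genes, 6 fell, 1 rose, 1 missed the threshold and 1 was not tested. HOXC11 (ENSG00000123388, chr12:53973126-53977643), a gene of the hindlimb and the kidney, had 1.30, 1.72 and 1.56 CPM in the libraries labelled shHDAC5, against 46.3, 45.1 and 46.7 CPM in those labelled shControl. It was 29.9-fold lower (log2 fold change −4.90, SE 0.114, adjusted p = 1.35e-66). HOXC10 (ENSG00000180818, chr12:53985146-53990279), its neighbour, which sets lumbar motor neuron and hindlimb identity, had 25.9, 27.0 and 29.9 CPM in the shHDAC5-labelled libraries and 102, 102 and 104 CPM in the shControl-labelled ones. It was 3.72-fold lower (log2 fold change −1.90, SE 0.0506, adjusted p = 5.46e-61). HOXC9 (ENSG00000180806), the thoracic motor neuron gene, had 1.60, 0.859 and 1.17 CPM with the shHDAC5 label and 16.7, 16.4 and 17.1 CPM with the shControl label, a log2 fold change of −3.79. HOXC8 (ENSG00000037965), HOXC6 (ENSG00000197757) and HOXC4 (ENSG00000198353) fell as well, at log2 fold changes of −2.63 for HOXC8, −3.09 for HOXC6 and −3.05 for HOXC4. HOXC6, a gene often studied in prostate cancer, had 2.25, 2.69 and 1.90 CPM in the libraries labelled shHDAC5 and 20.7, 17.8 and 19.6 CPM in those labelled shControl. HOXC4, HOXC5 and HOXC6 share an annotated start at position 54016888 of chromosome 12, and the sources used here do not give how reads of their common part were divided.

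The far end of HOXC stood apart from the rest of the cluster. HOXC13 (ENSG00000123364, chr12:53938831-53946544), the activator of hair keratin genes in the hair follicle, had 45.6, 42.9 and 43.0 CPM in the libraries labelled shHDAC5, against 35.3, 34.1 and 35.1 CPM in those labelled shControl. The groups did not overlap, and the log2 fold change was 0.33 (SE 0.0585, adjusted p = 2.25e-07), a small rise next to a median of 0.09 over all tested genes. HOXC12 (ENSG00000123407), between HOXC13 and HOXC11, was low under either label, with 0.295, 0.744 and 0.503 CPM under shHDAC5 and 0.837, 0.768 and 0.724 CPM under shControl. Its groups overlap and its log2 fold change of −0.58 missed the threshold (SE 0.416, adjusted p = 0.185).

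The HOXD cluster (chr2:176087487-176190907) was nearly silent, and its summed level was higher under the shHDAC5 label: 4.79, 4.81 and 4.70 CPM, against 3.99, 3.35 and 2.66 CPM under shControl. HOXD8 and HOXD9 together held most of it under either label. HOXD8 (ENSG00000175879, chr2:176129705-176132695), a trunk and limb gene, had 3.01, 3.26 and 3.69 CPM in the libraries labelled shHDAC5, against 1.87, 1.61 and 0.966 CPM in those labelled shControl. The groups did not overlap, and the log2 fold change was 1.18 (SE 0.242, adjusted p = 6.23e-06). HOXD9 (ENSG00000128709), its neighbour, had 1.18, 1.20 and 0.615 CPM with the shHDAC5 label and 1.61, 1.40 and 1.15 CPM with the shControl label. Those groups overlap, and the log2 fold change of −0.47 missed the threshold (SE 0.326, adjusted p = 0.173). The other 7 HOXD genes were not tested.

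The 15 genes that were not tested had few counts under both labels. No count was found in any library for HOXB1, a gene of the facial nerve, for HOXB2, for HOXD1 or for HOXD12. A count of 0 allows up to 3 counts per library, which is 0.168 to 0.177 CPM in the libraries labelled shHDAC5 and 0.181 to 0.21 CPM in those labelled shControl. HOXB4, a factor of blood stem cells, had 0 counts in each shHDAC5-labelled library and 1, 2 and 2 counts in those labelled shControl. HOXC5 had 1, 4 and 0 counts with the shHDAC5 label and 6, 5 and 3 with the shControl label. HOXA4 had 7, 1 and 9 counts with the shHDAC5 label and 4, 1 and 9 with the shControl label, and HOXA6 had 2, 5 and 5 with the shHDAC5 label and 6, 2 and 9 with the shControl label. HOXD11, which acts in the forearm and the digits, had 2, 3 and 3 counts with the shHDAC5 label and 0, 1 and 1 with the shControl label. HOXA2 had 6 counts in all with the shHDAC5 label and 1 with the shControl label, and HOXD4 had 6 with the shHDAC5 label and 9 with the shControl label. HOXA7, HOXD3, HOXD10 and HOXD13 likewise stayed at or below 0.322 CPM in each library. With no filter on low counts, none of the 11 of them that had a count passed the threshold, the closest being HOXB4 (adjusted p = 0.0782).

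By position, 1 of 7 anterior genes (numbers 1 to 3), 7 of 15 central genes (numbers 4 to 8) and 9 of 16 posterior genes (numbers 9 to 13) fell, with 2, 9 and 12 of them tested. The summed level of the anterior genes was 0.938 ± 0.63 CPM with the shHDAC5 label and 5.65 ± 0.31 CPM with the shControl label (SD, n = 3 each). The central genes summed to 14.6 ± 0.154 CPM in the libraries labelled shHDAC5 and to 70.8 ± 2.95 CPM in those labelled shControl, and the posterior genes to 104 ± 2.99 CPM with the shHDAC5 label and 293 ± 5.28 CPM with the shControl label. Along each of HOXA, HOXB and HOXC, the gene numbered 13 had the smallest fall among the genes that fell, or rose: −1.03 for HOXA13, −0.68 for HOXB13 and 0.33 for HOXC13 on the log2 scale. The largest fall of each cluster was at HOXA10 (−4.12), HOXB3 (−4.23) and HOXC11 (−4.90), so it sat at no common number. HOXB3 could pass the filter on low counts only by its level under the shControl label. Members of a cluster are neighbours on a chromosome and are not independent of each other.

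**Figure D2:**
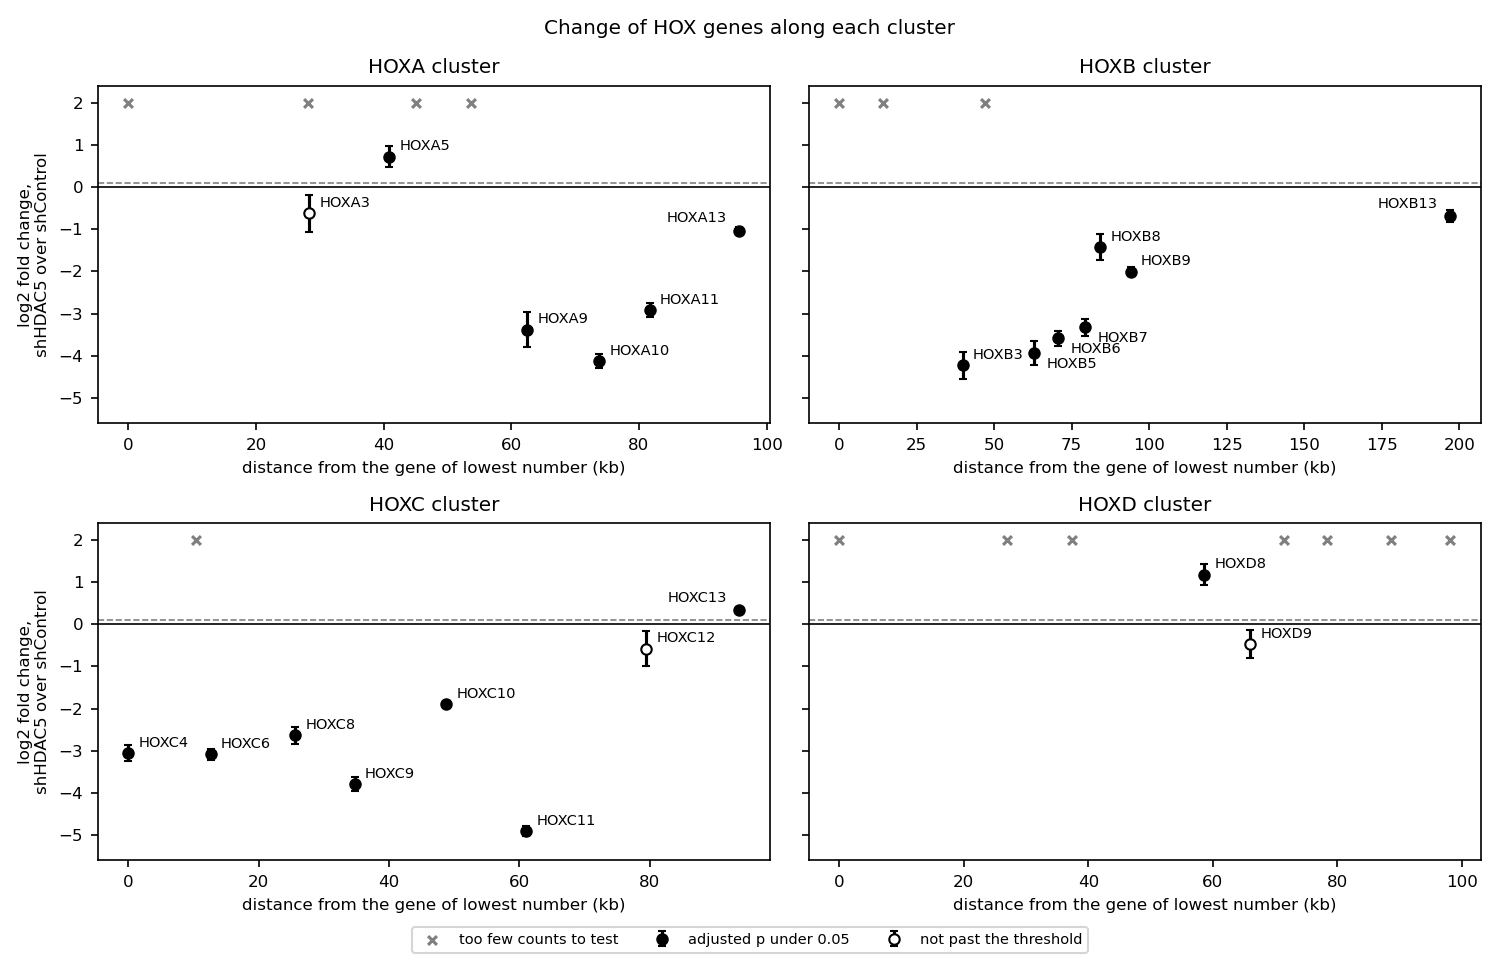
Log2 fold change (shHDAC5 over shControl) of each tested HOX gene against its distance in kb from the gene of lowest number in its cluster; bars are standard errors, filled points have an adjusted p under 0.05, crosses at the top edge mark genes that were not tested and carry no value, and the dashed line is the median of all tested genes (0.09). The gene numbered 13 lies highest or nearest to 0 in HOXB and HOXC, and HOXC11 lies lowest at −4.90.

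The make-up of the HOX RNA differed as well. To compare genes with each other, CPM were divided by gene length in kb (RPKM). HOXC13 made up 40.1% ± 1.77 of summed HOX RPKM in the libraries labelled shHDAC5 and 10.5% ± 0.0125 in those labelled shControl (SD, n = 3 each). HOXC10 made up 25.01% ± 1.43 with the shHDAC5 label and 30.9% ± 0.662 with the shControl label, so that HOXC13 ranked first of the 38 with the shHDAC5 label and HOXC10 with the shControl label. The share of HOXC11 was 1.01% ± 0.143 in the shHDAC5-labelled libraries and 10.1% ± 0.0828 in the shControl-labelled ones, and it ranked 14 of the 38 with the shHDAC5 label and 3 with the shControl label. In RPKM, HOXC13 reached 18.6 with the shHDAC5 label and 14.8 with the shControl label, and HOXC10 reached 11.6 with the shHDAC5 label and 43.3 with the shControl label. The cluster shares differed less: HOXC held 71.5% ± 0.816 of the RPKM with the shHDAC5 label and 67.7% ± 0.403 with the shControl label, and HOXA held 12.3% ± 0.917 with the shHDAC5 label and 12.3% ± 0.51 with the shControl label (SD, n = 3 each). HOXB held 11.9% ± 0.387 in the libraries labelled shHDAC5 and 18.9% ± 0.483 in those labelled shControl, and HOXD 4.38% ± 0.26 with the shHDAC5 label and 1.13% ± 0.173 with the shControl label.

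**Figure D3:**
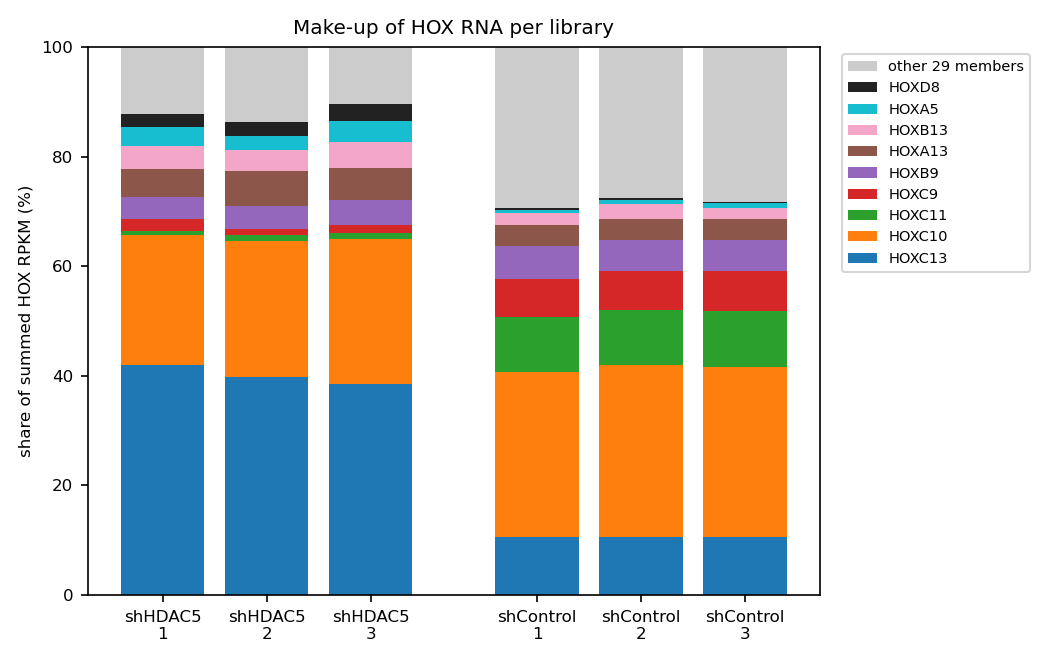
Share of each gene in the summed RPKM of the 38 HOX genes, in percent, 1 bar per library with the libraries labelled shHDAC5 on the left. HOXC13 fills about 40.1% of each bar on the left and about 10.5% of each on the right, and HOXC11 shrinks to about 1.01% on the left.

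Noncoding genes inside the clusters mostly fell with their coding neighbours. Of 18 listed, 13 were tested: 11 fell and 2 rose, while 39.9% of all tested genes were lower and 44.8% higher. The median log2 fold change of the 13 was −2.82 (0.09 over all tested genes). Some of the 13 passed the filter on low counts only by their level under a single label, HAGLR by that under shHDAC5 and others by that under shControl. HOTAIR, a long noncoding RNA made between HOXC11 and HOXC12 and reported to bind Polycomb proteins, had 2.01, 0.687 and 0.839 CPM in the libraries labelled shHDAC5, against 34.9, 36.1 and 36.5 CPM in those labelled shControl. Its log2 fold change of −4.93 (SE 0.137, adjusted p = 3.06e-59) was close to that of HOXC11. HOXC-AS3 (log2 fold change −4.42), HOXC-AS2 (−3.88) and HOXA11-AS (−2.82) fell too. The genes that rose were HOTAIRM1, from the low-number end of HOXA, with 28.6, 28.7 and 25.9 CPM under shHDAC5 and 15.9, 15.2 and 12.9 CPM under shControl (log2 fold change 0.92), and HAGLR in HOXD (2.74). HAGLR stayed low, at 0.827, 0.859 and 0.615 CPM with the shHDAC5 label and 0, 0.21 and 0.121 CPM with the shControl label. The sources used here do not give the strand setting of the counting, so reads of a HOX gene and of its antisense partner cannot be told apart.

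Genes known to work with or on HOX genes changed in both directions, as did genes in general (44.8% of all tested genes higher and 39.9% lower), so these counts are a description only. Of 9 HOX cofactors, homeodomain proteins that bind DNA together with HOX proteins, 8 were tested: 4 rose and 4 fell, and the median of their log2 fold changes was −0.10. PBX2 averaged 17.6 ± 0.638 CPM in the libraries labelled shHDAC5, against 81.0 ± 1.80 CPM in those labelled shControl (SD, n = 3 each, log2 fold change −2.20, SE 0.0582, adjusted p = 2.45e-61). MEIS2 fell by 2.36 on the log2 scale, while PBX4 rose by 1.27. Of 32 Polycomb genes, whose products keep HOX genes silent, 31 were tested: 10 rose, 15 fell and 6 missed the threshold, with a median of −0.13. Scaled by total counts alone, the split was 15 higher and 13 lower, so the group had no direction that held under each scaling. The catalytic subunit EZH2 ranged from 120 to 129 CPM with the shHDAC5 label and from 140 to 152 CPM with the shControl label (log2 fold change −0.22), and its partner EED missed the threshold (log2 fold change −0.02, adjusted p = 0.774). PHF19, a Polycomb targeting factor, had 18.1, 18.3 and 17.1 CPM with the shHDAC5 label and 120, 122 and 122 CPM with the shControl label, a log2 fold change of −2.77. RBBP4 fell by 1.79 on the log2 scale, whereas RYBP rose by 1.83 and JARID2 by 1.13.

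Of 18 Trithorax and elongation genes, which keep HOX genes active, 7 rose, 10 fell and 1 missed the threshold, with a median of −0.12. By total counts alone the split was 8 higher and 7 lower, and by DESeq2 it was 7 higher and 7 lower. MLLT1 (log2 fold change −1.37), KMT2D (−1.28) and PSIP1 (−1.37) fell, and KMT2C rose by 1.04. KMT2A, the methyltransferase best known for keeping HOX genes on, had 188, 187 and 189 CPM in the libraries labelled shHDAC5, against 147, 145 and 146 CPM in those labelled shControl. Of 7 CTCF and cohesin genes, which fold the clusters into domains, 6 fell and 1 rose (median −0.85). STAG2 fell by 3.00 on the log2 scale, to 43.4, 41.0 and 43.3 CPM with the shHDAC5 label, against 330, 341 and 354 CPM with the shControl label. RAD21 (log2 fold change −2.22), SMC1A (−0.85) and SMC3 (−0.82) fell too.

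Retinoic acid is a known inducer of HOX genes, and 10 of 17 listed genes of its pathway were tested: 5 rose and 5 fell (median −0.69). The receptor RARG (log2 fold change −2.30) and its partner RXRA (−1.54) fell, while RARB had 13.5, 12.2 and 14.0 CPM in the libraries labelled shHDAC5, against 0, 0.0699 and 0.422 CPM in those labelled shControl. CYP26B1, which breaks down retinoic acid, rose by 2.42, and DHRS3, which limits its synthesis, fell by 3.76. Of 9 ParaHox and neighbouring homeobox genes only MNX1 was tested, and it rose by 0.62. PDX1, the ParaHox gene of the pancreas, had no count in any library. Among the 3 nearest coding genes on each side of the span of the 38 genes in each cluster, 24 in all, 20 were tested: 10 rose and 10 fell, with a median of 0.02. Next to HOXB, TTLL6 rose by 3.82 and SNX11 by 1.28, and next to HOXC, CALCOCO1 rose by 2.50 and CBX5 fell by 2.02. Beside HOXA, SKAP2 rose by 1.79, and beside HOXD, HNRNPA3 fell by 1.18 and ATP5MC3 rose by 0.58.

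**Figure D4:**
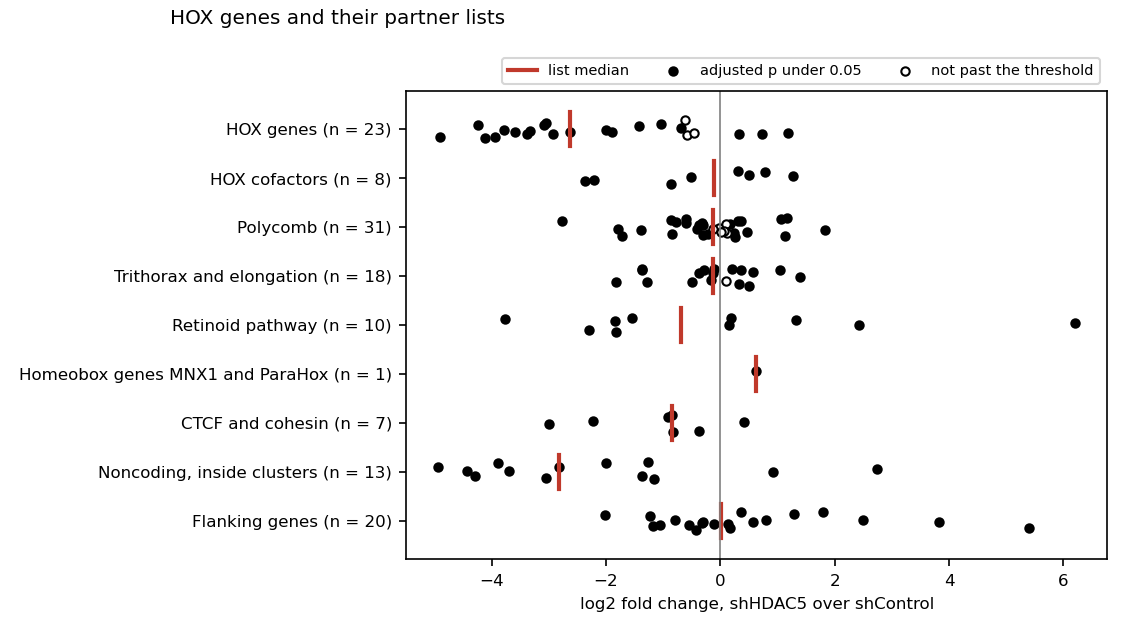
Log2 fold change (shHDAC5 over shControl) of the tested genes of each list, 1 point per gene, filled where the adjusted p is under 0.05, with the median of the list as a bar. HOX genes (median −2.63) and noncoding genes inside the clusters (−2.82) lie mostly left of 0, while flanking genes (0.02) and HOX cofactors (−0.10) lie on both sides.

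GATA1 peaks in PANC-1 were counted over the clusters with 10 kb on either side, 600.5 kb in all. The names of the peaks inside the lists contradict the labels: those in the list labelled shHDAC5 begin with GATA1-NC-IP and those in the list labelled shControl with GATA1-SAHA-IP. With 1 list per condition and another cell line than that of the RNA, no difference between the lists was tested. The list labelled shHDAC5 held 50 peaks over the clusters and the list labelled shControl 126. This was 8.33 peaks per 100 kb in the list labelled shHDAC5, close to its 8.07 over the genome and 8.75 over coding genes with 10 kb on either side. In the list labelled shControl it was 21.0 per 100 kb, against 3.92 over the genome and 5.70 over such gene windows. The HOXA cluster was the densest in the list labelled shControl, with 9 peaks in the list labelled shHDAC5 and 46 in the list labelled shControl. HOXB had 20 in the list labelled shHDAC5 and 24 in the list labelled shControl, HOXC had 9 under the shHDAC5 label and 26 under the shControl label, and HOXD had 12 under the shHDAC5 label and 30 under the shControl label. Of the peaks over the clusters, 10 of 50 in the list labelled shHDAC5 and 11 of 126 in the list labelled shControl overlapped a peak of the other list by at least 1 base.

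Most of these peaks were weak by the authors' own scores. At a q of at most 0.05, 1 peak was left in the list labelled shHDAC5 and 15 in the list labelled shControl, of which 9 lay in HOXA, 1 in HOXB, 3 in HOXC and 2 in HOXD. The 1 peak of the list labelled shHDAC5 lay at HOXA6 (chr7:27147381-27147732), with a fold enrichment of 4.31 as given by the authors and a q of 0.00556, and it overlapped a peak of the other list. The highest fold in the list labelled shControl was 5.24, at a peak beside HOXD8 (chr2:176136596-176136873, q = 0.00102), followed by 5.13 at a peak between HOXB9 and HOXB13 (chr17:48641889-48642825, q = 0.000621). HOXA10 carried 2 such peaks (chr7:27172764-27173680 and chr7:27173787-27174842, q = 0.0205 and 0.0371) and the second of them lies over the promoter window shown for HOXA10. A peak upstream of HOXA9 in the list labelled shControl (chr7:27164553-27167253, fold 4.37, q = 0.0114) spans its promoter window. Of the 26 promoter windows (250 bases before to 50 after a start), 3 (11.5%) met a peak of the list labelled shHDAC5, against 7.67% of 34935 windows in all. For the list labelled shControl 10 (38.5%) met a peak, against 19.9% of all windows. These shares take in peaks of any q. At a q of at most 0.05, 2 HOX windows (7.69%) met a peak of the list labelled shControl, against 2.65% of all windows. For the list labelled shHDAC5 it was 1 (3.85%), against 0.0916% of all. The windows of HOXA9 and HOXA13 met a peak in both lists, and that of HOXD8 only in the list labelled shControl. Of the 2 windows of HOXA10, the one shown met a peak only in the list labelled shControl and the other met none, nor did those of HOXA11 and HOXC4. Of the 10 windows that met a peak of the list labelled shControl, 3 belong to genes that fell, 1 to a gene that rose, 1 to HOXA3, which missed the threshold, and 5 to genes that were not tested.

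**Figure D5:**
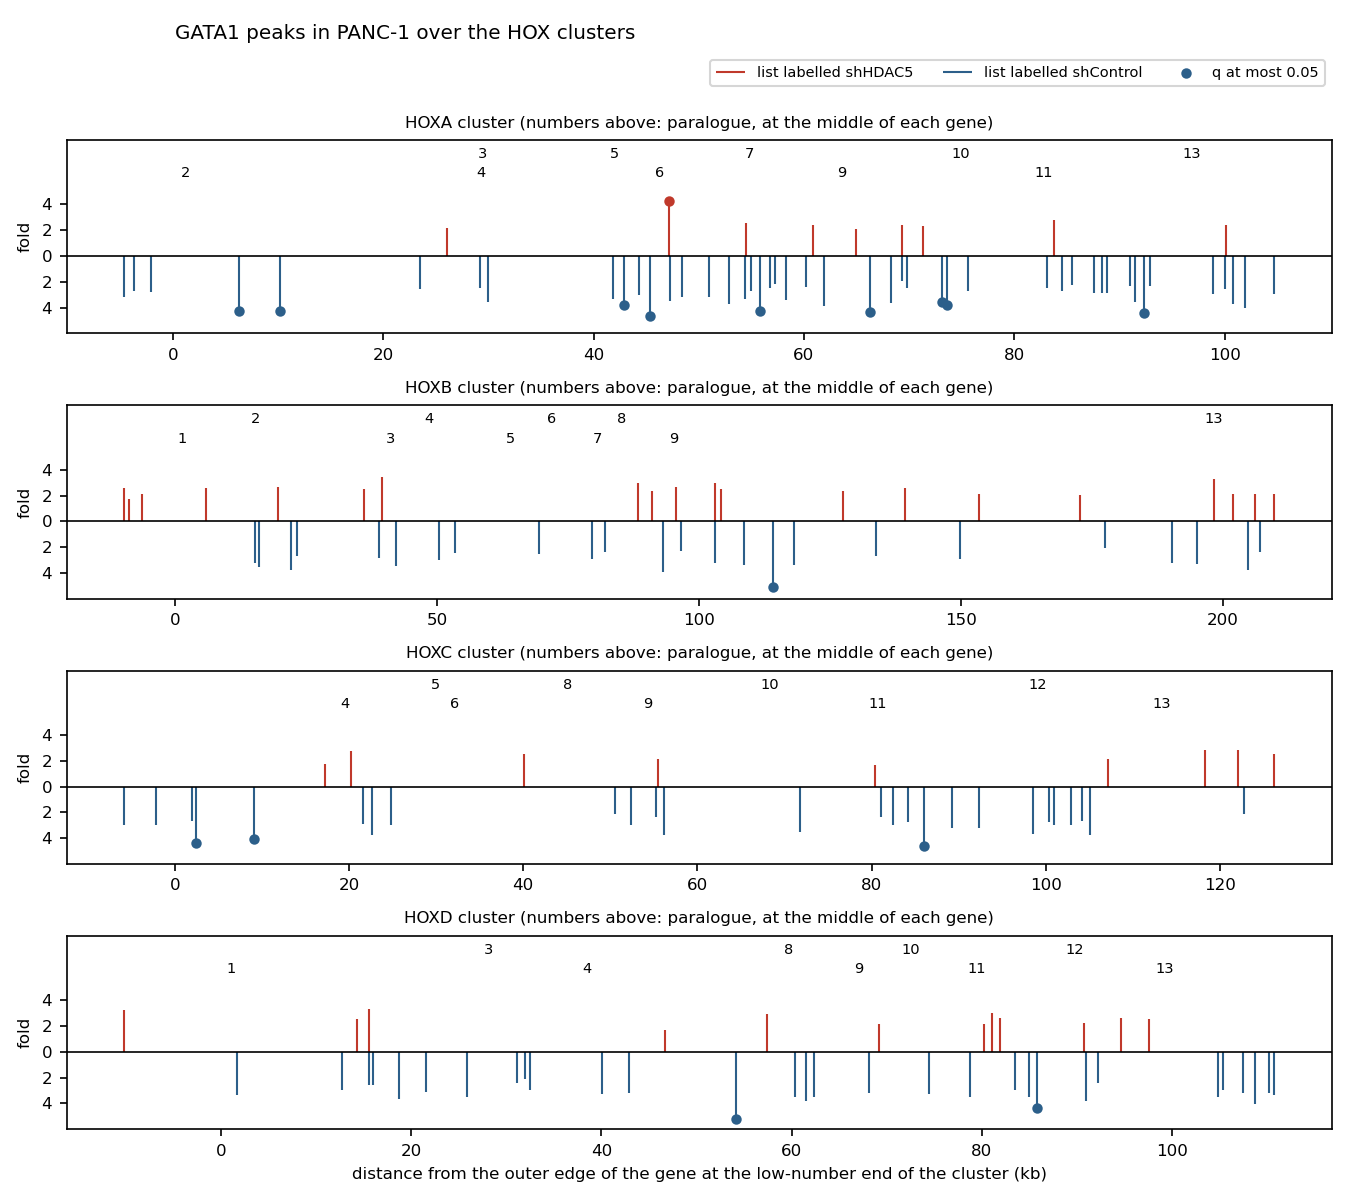
GATA1 peaks over the 4 clusters against distance in kb from the low-number end, with the authors' fold enrichment upward for the list labelled shHDAC5 and downward for the list labelled shControl; dots mark a q of at most 0.05 and numbers the middle of each HOX gene. The list labelled shControl has 46 peaks over HOXA, against 9 in the list labelled shHDAC5, and all dots but 1 are in the list labelled shControl.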

How the data were processed

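The data are RNA counts of 6 BxPC-3-labelled libraries (3 shHDAC5, 3 shControl) and GATA1 peaks of PANC-1, and groups follow the labels' treatment and antibody. The authors' deposited count table holds raw whole-number counts for each Ensembl ID, and the gene length. The submitters' processing notes list, with no role for any, MACS2 2.2.7.1, featureCounts 2.0.1, fastp 0.23.2, FastQC 0.11.9, deepTools 3.5.0 and hg38; aligner, annotation release and strand setting: not given in the sources used here. Of each peak the authors' deposited fold enrichment (a ratio) and −log10 q were used; the sources do not state whether immunoprecipitations were pooled. Inputs were not analysed here.

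Symbols were found for 61369 of 61541 gene IDs. Genes passing edgeR's filterByExpr were TMM-scaled and entered the quasi-likelihood test of edgeR 4.0.16 (R 4.3.3) with group as the single term, with Benjamini-Hochberg adjustment over all 19181 tested genes and a threshold of 0.05. CPM use TMM-scaled library sizes, RPKM divide them by the table's gene length, and the standard error (SE) was taken as the absolute log2 fold change divided by the root of the F statistic. Total counts were 15935649, 16388744 and 16889876 for shHDAC5 replicates 1 to 3 and 16530058, 15179758 and 17854340 for shControl, which sets the precision of genes with few counts. On simulated counts for this comparison, 96 of 100 genes changed 2-fold and 25 of 100 changed 1.25-fold were found again (16294 genes tested, 3 false calls); only these 200 genes were changed, whereas most genes differ in the real data, so these rates hold for the simulation alone. Libraries of a group differed by more than sampling noise (chi-square over degrees of freedom 1.56 to 1.99), so none was counted as a duplicate.

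Gene coordinates and promoter sequences came from RefSeq tables of GRCh38.p14. Peaks were joined to the clusters by an overlap of at least 1 base. Members, gene lists, tests and the naming rule were chosen with earlier results of these data known, and the words searched for in promoters after their sequences were read. Named genes are each listed HOX gene with HDAC5 as the label check, from each list at most 4 called genes, lowest adjusted p first, up to 2 called flanking genes per cluster with the largest change, and markers; EZH2, EED, KMT2A, RARB, PDX1, HOTAIRM1 and HAGLR were added after their values were seen. Some genes under this rule are not reported here. Alternatives were DESeq2 1.42.0, other scalings and filters, a 2-fold minimum, a replicate block, each library left out in turn, and other peak thresholds and margins. Tools were Python 3.11.15, pandas 2.3.3 and matplotlib 3.10.9.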

Additional observations from a re-analysis of the deposited data

How the results depend on the processing

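The 3 higher and 17 lower HOX genes were the same in number with DESeq2, under each other scaling and filter, and with the replicate number as a block, and no tested HOX gene changed sign under any alternative. A 2-fold minimum left 1 higher and 16 lower HOX genes, since HOXA5, HOXB13 and HOXC13 changed by less; over all genes it left 5071 higher and 3846 lower, and over the lists of cofactors, regulators and noncoding genes 16 higher (40 without it) and 32 lower (61 without it). Leaving out 1 library gave 2 to 3 higher and 17 to 18 lower HOX genes, 8499 to 8883 higher and 7622 to 7718 lower over all genes, and 37 to 40 higher and 60 to 61 lower over the lists. With the replicate number as a block, 8514 genes were higher and 7558 lower over all genes; same-numbered libraries deviated together at correlations of −0.0126, 0.00258 and 0.00593, so the numbers do not pair the samples. Scaling moved the median of all log2 fold changes by 0.03 with RLE factors, 0.14 with upper-quartile factors and 0.18 with total counts, and HOXC13 ranged from 0.29 to 0.51 over all alternatives.

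At a q of at most 0.05, 1 of the 50 peaks in the list labelled shHDAC5 and 15 of the 126 in the list labelled shControl were left. Without the 10 kb margin there were 40 in the list labelled shHDAC5 and 108 in the list labelled shControl. Depth limits the genes near 1 CPM: 15 HOX genes could not be tested, and HOXA3 and HOXA5 changed their call when 1 library was left out.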
